A study of Mus musculus with 12 samples.

Results

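Genes of the nitric oxide and cGMP pathway were followed in whole mouse aortae after a 24 h fast. They were 10 genes chosen by name for their roles in making nitric oxide, limiting its synthesis, sensing it and carrying the cGMP signal: Nos3, Gch1, Ddah1, Ddah2, Cav1, Gucy1a1, Gucy1b1, Npr1, Prkg1 and Pde5a. Of these, 9 had rows in the deposited table, among 12287 genes in all, and they were measured through 23 of its 22699 transcripts. All 9 passed the filter on low values, and Ddah1 was not analysed here. The study set 6 control aorta samples beside 6 from fasted animals, all from C57BL/6 mice 7 weeks old, and the labels name no transgene or drug for either group. Surrounding fat was dissected away before RNA was extracted. Whether each sample is a separate animal is not stated. The p-values here set the difference between the groups against the scatter of these samples within groups. Some of that scatter may be technical, and the p-values may not extend to other animals.

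Nitric oxide is made from arginine in the endothelium by the synthase encoded by Nos3, which needs the cofactor tetrahydrobiopterin and is held back by caveolin and by methylated arginines. It diffuses into smooth muscle, binds soluble guanylate cyclase and raises cGMP. cGMP also comes from the membrane receptor for atrial natriuretic peptide. It activates a protein kinase that lowers calcium and relaxes the vessel wall, and phosphodiesterases break it down.

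Levels are given in FPKM (fragments per kilobase of transcript and scaled by the mapped fragments of the library), summed over the listed transcripts of a gene, as mean ± SD of 6 libraries per group. Differences are given with their SE on the log2(FPKM + 1) scale, positive where the fasted group was higher, and this scale understates the change of low genes. They were tested two-sided with limma over all 12063 genes that passed the filter, and a gene was called at a Benjamini-Hochberg adjusted p under 0.05. The number of reads per library is unknown, and listed values summed to 299588 to 327492 FPKM per library. Smooth muscle markers were abundant in every library, with a summed level of 9115 to 11280 FPKM over 10 genes in the control group and 9085 to 10260 in the fasted group. The 13 endothelial markers summed to 217 to 305 FPKM in the control group and 282 to 364 FPKM in the fasted group. Of these, 4 rose (Pecam1, Cldn5, Flt1 and Ptprb) and 1 fell (Eng), 38.5% called beside 31.7% of all genes tested. The endothelial sums overlapped, and their most abundant gene was Pecam1, at 91.0 FPKM in the control and 155 FPKM in the fasted group. Tie1, Tek and Emcn had slightly lower means in the fasted group and did not pass. Of 8 adipocyte markers tested, 4 rose, and their summed level went from 80.6 to 161 FPKM in the control libraries to 189 to 466 FPKM in the fasted ones. These sums did not overlap and were mostly Fabp4, a fatty acid binding protein (67.9 and 195 FPKM). Of the 8 markers, Fabp4 and Cidec had no overlap between the groups and the other 6, Adipoq and Plin1 among them, overlapped. Fasted replicate 3 was the highest at 466 FPKM. Skeletal and cardiac muscle markers, 4 tested, summed to 21 to 35.1 FPKM in the control group and 33.1 to 184 FPKM in the fasted group, and 1 of them, Tnnt2, a cardiac troponin, rose from 18.6 to 62.8 FPKM (1.44 ± 0.37, adjusted p = 0.0105, limma). No lymphocyte marker was among the rows analysed. Across genes, a library's deviation from its group was related to transcript length, with Spearman's rho from -0.282 in fasted replicate 3 to 0.326 in fasted replicate 1 over 12063 genes, which are not independent replicates.

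Nos3 rose in the fasted aortae, and the other 8 genes of the set did not pass the test. So 1 of 9 was called, beside a background of 31.7% of all genes tested (13.8% higher and 17.9% lower). In none of the 9 were the groups free of overlap, beside 17% of all genes tested. The median difference of the 9 genes was 0.04, beside -0.02 over all genes, and their median absolute difference was 0.06, beside 0.17.

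**Figure D1:**
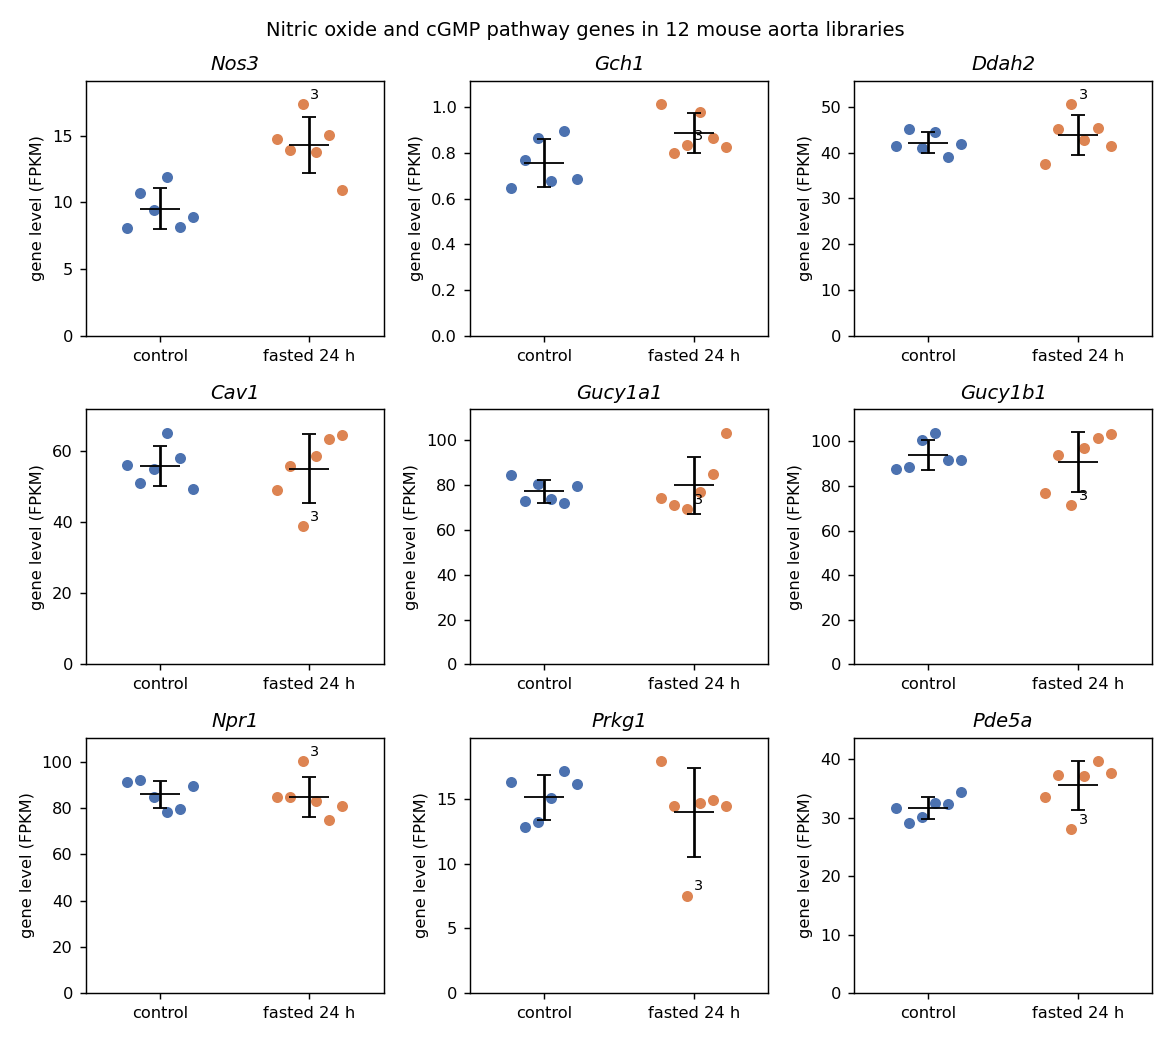
Level in FPKM of each of the 9 genes by group. Points are libraries in order of replicate number, 6 control and 6 fasted 24 h, bars are mean ± SD, and the digit 3 marks fasted replicate 3. Nos3 is the panel where 5 of 6 fasted libraries lie above all controls, and fasted replicate 3 is the lowest point for Prkg1, at 7.52 FPKM.

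The genes that sense nitric oxide and natriuretic peptide were the most abundant of the set. Over the 12 libraries the mean level was 92.3 FPKM for Gucy1b1, 85.4 FPKM for Npr1 and 78.6 FPKM for Gucy1a1, and the ranges of these 3 overlapped. Gucy1b1 was above Npr1 in 8 of 12 libraries and Npr1 above Gucy1a1 in 10 of 12. Cav1 followed at 55.3 FPKM, below Gucy1a1 in all 12 libraries. Ddah2 had 43.0 FPKM and was below Cav1 in 11 of 12 libraries, and Pde5a had 33.6 FPKM and was below Ddah2 in all 12. Prkg1 and Nos3 were lower, at 14.5 and 11.9 FPKM, and their order was not the same throughout, with Prkg1 above Nos3 in 10 of 12 libraries. Gch1 had the lowest level, 0.82 FPKM. It stood at the 4.79 percentile of the genes tested, whereas Gucy1b1 stood at the 95.7 percentile.

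Nos3 (ENSMUSG00000028978.12, chr5:24364810-24384474, plus strand, GRCm38) encodes endothelial nitric oxide synthase. Its level in the control libraries was lowest at 8.10, with a median of 9.16 and a highest value of 11.9 FPKM. In the fasted libraries the lowest was 10.9, the median 14.3 and the highest 17.4 FPKM. In all, 5 of 6 fasted libraries lay above all controls, and fasted replicate 6 at 10.9 FPKM lay inside the control range. The mean went from 9.54 ± 1.51 to 14.3 ± 2.09 FPKM, a ratio of 1.498, and the log2 difference was 0.54 ± 0.11 (95% interval 0.30 to 0.77, adjusted p = 0.00255, limma). The call held when any 1 library was left out, with differences from 0.48 to 0.61. It was lost with the mean log2 level of the adipocyte markers Adipoq, Plin1, Cidec, Fabp4 and Cfd as a covariate (0.38, adjusted p = 0.0694, limma). Cidec and Fabp4 did not overlap between the groups, so this fit cannot fully separate the marker level from fasting. The part of fat left on the vessels in this difference was not tested.

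Because Nos3 is expressed by the endothelium, which is a thin layer in whole aorta, its level was set beside that of other endothelial genes of the same library. In bulk tissue more cells of a type and more RNA per cell cannot be told apart. Pecam1, an adhesion molecule of endothelial junctions, rose from 91.0 to 155 FPKM (0.77 ± 0.10, adjusted p = 0.000162, limma). Cdh5, the cadherin of the same junctions, had 13.0 and 14.6 FPKM and did not pass, nor did Tie1 at 8.13 and 7.89 FPKM. The log2 ratio of Nos3 to the mean of 8 endothelial genes was -0.02 in the control group and 0.29 in the fasted group, and 4 of 6 fasted libraries lay above all controls. That difference of 0.30 did not pass over the 5 ratios tested (exact two-sided permutation p = 0.0390, adjusted p = 0.0649). With the endothelial level as a covariate the difference of Nos3 was 0.41 and kept its call (adjusted p = 0.0468, limma). Pecam1, 1 of the 8 genes of that level, did not overlap between the groups, so this fit cannot fully separate the marker level from fasting.

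Nos3 RNA was listed as a pair of transcripts that differ near the end of the reading frame. Nos3-201 has 26 exons and codes for 1202 amino acids. Nos3-202 leaves out exon 25 (chr5:24383530-24383724, 195 bases) and the first 93 bases of the last exon. It thereby lacks 288 coding bases, codons 1085 to 1180, in the reductase domain that takes up electrons from NADPH, and keeps the frame, with 1106 codons. The transcripts also end apart, Nos3-201 at 24384474 and Nos3-202 at 24384327. The junction of each is shown because it sets the coding sequences apart. Both sequences are coding bases of the plus strand from the GENCODE transcripts, the lower-case bases are shared and the capitals begin after the junction.
Nos3-201, chr5:24383379-24383559: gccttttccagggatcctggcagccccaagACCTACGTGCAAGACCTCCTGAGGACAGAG
Nos3-202, chr5:24383379-24383940: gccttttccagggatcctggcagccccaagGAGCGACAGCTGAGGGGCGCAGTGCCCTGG

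The fasted libraries differed among themselves in how the Nos3 signal was divided. Nos3-202 was listed at 0 in control replicates 1, 2, 5 and 6, at 1.44 FPKM in control replicate 3 and at 0.77 FPKM in control replicate 4. It was above 0 in all 6 fasted libraries, at 1.68, 0.86, 8.25, 0.84, 0.78 and 4.44 FPKM in replicates 1 to 6. As a share of the gene this was 47.6% in fasted replicate 3 and 40.7% in fasted replicate 6, 5.18% to 11.5% in the other 4 fasted libraries, and at most 15.3% in a control. The full-length Nos3-201 was at 13.0 to 14.2 FPKM in fasted replicates 1, 2, 4 and 5, above the highest control at 11.2 FPKM. In fasted replicates 3 and 6 it was at 9.10 and 6.47 FPKM, the first within the control range and the second below the lowest control (7.98 FPKM). Neither transcript passed the test over 20599 transcripts, of which 16.2% were called. The log2 difference was 0.26 ± 0.17 for Nos3-201 (adjusted p = 0.337, limma) and 1.26 ± 0.43 for Nos3-202 (adjusted p = 0.0680, limma). The share of Nos3-202 did not pass either (adjusted p = 0.322, limma on arcsine square root shares), where 0.532% of 14107 shares were called. The call of the gene thus rests on the sum, and was lost with Nos3-201 alone (adjusted p = 0.279, limma). The division of reads between transcripts is an estimate by StringTie whose error is not in the table. An annotated antisense gene, Gm15587, overlaps the opposite strand of Nos3 from 24366192 to 24383614, which takes in the first bases of exon 25. The protein-coding gene Atg9b overlaps the opposite strand from 24384181 to 24384474, which takes in the end that Nos3-201 alone has. The part of these genes in the division was not tested.

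**Figure D2:**
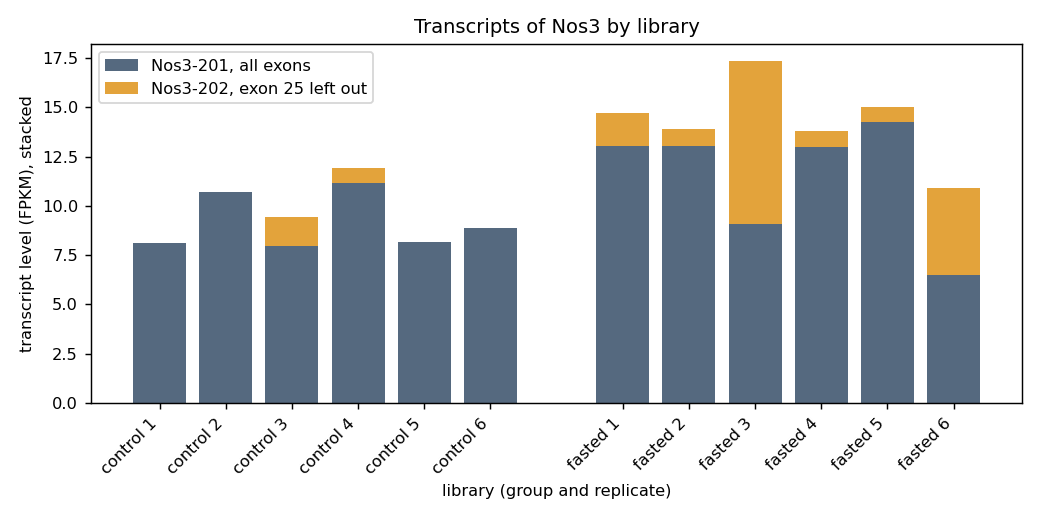
Stacked level in FPKM of the transcripts of Nos3 in each library. The bars show Nos3-202 at 8.25 FPKM in fasted replicate 3 and 4.44 FPKM in fasted replicate 6, with no Nos3-202 in control replicates 1, 2, 5 and 6.

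Cav1 (ENSMUSG00000007655.16, chr6:17306335-17341452, plus strand) encodes caveolin-1, the coat protein of caveolae that binds and inhibits the synthase. It ranged from 49.4 to 65.0 FPKM with a median of 55.3 in the control group and from 38.8 to 64.4 FPKM with a median of 57.1 in the fasted group. Fasted replicate 3 was the lowest of all 12 libraries. The difference was -0.03 ± 0.11 (95% interval -0.28 to 0.21, adjusted p = 0.860, limma). The most abundant transcripts of its 7 were Cav1-202 and Cav1-205. Cav1-205 codes for the α form of 178 amino acids, and Cav1-202 for the β form of 147, which starts at codon 32 of the α frame. The first 108 coding bases of Cav1-205 are shown because they hold both start codons, in capitals, on the plus strand.
Cav1-205, chr6:17306450-17307958: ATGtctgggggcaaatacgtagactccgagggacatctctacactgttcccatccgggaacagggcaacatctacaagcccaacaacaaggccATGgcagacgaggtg

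Cav1-202 made up 43.8% ± 2.24 of Cav1 in the control group and 44.8% ± 2.10 in the fasted group, and Cav1-205 made up 36.0% ± 3.66 and 37.3% ± 2.25. The other 5 transcripts (Cav1-201, Cav1-203, Cav1-204, Cav1-206 and Cav1-209) had group means of 0.52 to 4.17 FPKM, and no share or transcript of Cav1 passed the test. The log2 ratio of Nos3 to Cav1 within a library was -2.82 to -2.25 with a median of -2.51 in the control group and -2.56 to -1.16 with a median of -2.04 in the fasted group. The ratio of levels went from 0.170 to 0.261 and was above all controls in 5 of 6 fasted libraries. That rise of 0.62 in log2 ratio passed over the 5 ratios (exact two-sided permutation p = 0.0108, adjusted p = 0.0271). It did not pass without control replicate 1 or without control replicate 5 (adjusted p = 0.0541 for each), nor with Nos3-201 and Cav1-202 alone (0.29, adjusted p = 0.512).

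The genes read for the supply of the synthase, Gch1 and Ddah2, did not pass the test. Gch1 (ENSMUSG00000037580.10, chr14:47153895-47189413, minus strand) encodes GTP cyclohydrolase, the rate-limiting enzyme of tetrahydrobiopterin synthesis. Its 1 listed transcript was at 0.65 to 0.89 FPKM with a median of 0.73 in the control group and at 0.80 to 1.01 FPKM with a median of 0.85 in the fasted group. All 6 fasted libraries lay above the control median, yet the groups overlapped and the difference of 0.10 ± 0.06 did not pass (95% interval -0.03 to 0.24, adjusted p = 0.230, limma). The log2 ratio of Gch1 to Nos3 was -3.65 in the control group and -4.004 in the fasted group, and this difference of -0.35 did not pass either (exact two-sided permutation p = 0.0520, adjusted p = 0.0649). Ddah2 (ENSMUSG00000007039.12, chr17:35059035-35062095, plus strand) encodes an enzyme described as a dimethylarginine dimethylaminohydrolase, the class that clears methylated arginines. It ranged from 39.0 to 45.3 FPKM with a median of 41.7 in the control group and from 37.6 to 50.6 FPKM with a median of 44.0 in the fasted group, with a difference of 0.05 ± 0.07 (95% interval -0.09 to 0.19, adjusted p = 0.595, limma). Its main transcript Ddah2-201 made up 78.2% and 78.1% of the gene. Ddah2-202 was at 7.92 and 7.56 FPKM. The minor Ddah2-204, which codes for 244 in place of 285 amino acids, was at 0.89 to 1.65 FPKM in the control group and at 1.09 to 2.78 FPKM in the fasted group. In 5 of 6 fasted libraries it was above all controls, but it did not pass (0.38 ± 0.15, adjusted p = 0.0992, limma) unless fasted replicate 6 was left out (0.48, adjusted p = 0.0235, limma).

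Neither subunit of soluble guanylate cyclase, the nitric oxide receptor, passed the test. Gucy1a1 (ENSMUSG00000033910.13, chr3:82092427-82145789, minus strand), the α subunit, ranged from 72.2 to 84.4 FPKM with a median of 76.8 in the control group and from 69.4 to 103 FPKM with a median of 75.5 in the fasted group. Fasted replicate 6 was the highest, and 2 fasted libraries were above and 2 below all controls. The difference was 0.04 ± 0.09 (95% interval -0.15 to 0.23, adjusted p = 0.782, limma). Gucy1b1 (ENSMUSG00000028005.13, chr3:82032006-82074689, minus strand), the β subunit that carries the haem, ranged from 87.8 to 104 FPKM with a median of 91.6 in the control group and from 71.5 to 103 FPKM with a median of 95.5 in the fasted group. Fasted replicates 1 and 3 were below all controls, at 76.7 and 71.5 FPKM. The difference was -0.06 ± 0.09 (95% interval -0.26 to 0.14, adjusted p = 0.651, limma). A single transcript dominated each subunit, with Gucy1a1-201 at 98.1% and 97.1% of its gene and Gucy1b1-201 at 97.1% and 96.7%. The minor Gucy1a1-204, with the same coding sequence as Gucy1a1-201, was at 1.115 and 1.67 FPKM, Gucy1b1-204 at 2.71 and 2.97 FPKM, and Gucy1a1-203 at 0.38 and 0.51 FPKM, too low to be tested. The log2 ratio of the α to the β subunit was -0.28 in the control group and -0.18 in the fasted group, a difference of 0.10 that did not pass (exact two-sided permutation p = 0.286, adjusted p = 0.286).

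Npr1 (ENSMUSG00000027931.12, chr3:90450591-90465866, minus strand) encodes the receptor with its own guanylate cyclase that binds atrial and brain natriuretic peptide. Its 1 listed transcript was at 78.5 to 92.1 FPKM with a median of 87.2 in the control group and at 74.8 to 100 FPKM with a median of 84.0 in the fasted group. Fasted replicate 3 was the highest and fasted replicate 5 the lowest of all 12 libraries. The difference was -0.02 ± 0.07 (95% interval -0.17 to 0.13, adjusted p = 0.842, limma), and it had the other sign after scaling by median-of-ratios factors (0.0079) or to an equal sum of listed values (0.0055).

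Prkg1 (ENSMUSG00000052920.15, chr19:30564489-31765033, minus strand) encodes the cGMP-dependent protein kinase of smooth muscle. It ranged from 12.8 to 17.1 FPKM with a median of 15.6 in the control group and from 7.52 to 17.9 FPKM with a median of 14.6 in the fasted group. Fasted replicate 3 was at 7.52 FPKM and the other 5 fasted libraries at 14.4 to 17.9. The difference was -0.14 ± 0.16 (95% interval -0.48 to 0.20, adjusted p = 0.547, limma) and was 0.02 without fasted replicate 3. The transcripts Prkg1-201 and Prkg1-202 begin 100663 bases apart and encode the Iα form (671 amino acids) and the Iβ form (686 amino acids), which differ in the leading stretch that pairs the kinase with itself and guides it to partners. The first 60 coding bases are shown because the forms differ from the start codon on, and that codon is in capitals. Both are read from the minus strand of GRCm38. Prkg1-201 was matched to GENCODE M21 under another version of its identifier, so the transcript quantified may differ from the one shown.
Prkg1-201, chr19:31764763-31764822: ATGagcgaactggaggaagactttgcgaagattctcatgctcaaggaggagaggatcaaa
Prkg1-202, chr19:31664222-31664281: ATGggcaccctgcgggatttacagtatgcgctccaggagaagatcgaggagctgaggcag

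The Iα transcript predominated in every library. Prkg1-201 had 11.99 ± 1.35 FPKM in the control group and 11.4 ± 2.73 in the fasted group, and Prkg1-202 had 3.12 ± 0.46 and 2.59 ± 0.73 FPKM. The share of Iα was 77.6% to 80.9% in the control group and 80.2% to 83.5% in the fasted group. All 6 fasted libraries lay above the control median and 4 of 6 above all controls, including fasted replicate 3 at 83.5%. The difference in share, 79.4% against 81.7%, did not pass over all shares (adjusted p = 0.489, limma on arcsine square root shares).

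Pde5a (ENSMUSG00000053965.10, chr3:122728947-122859374, plus strand) encodes the cGMP phosphodiesterase that sildenafil inhibits. It ranged from 29.2 to 34.4 FPKM with a median of 32.1 in the control group and from 28.1 to 39.7 FPKM with a median of 37.3 in the fasted group. In 4 fasted libraries it was above all controls, and fasted replicate 3 was below all controls. Means were 31.7 ± 1.87 and 35.6 ± 4.17 FPKM, and the difference of 0.15 ± 0.08 did not pass (95% interval -0.01 to 0.32, adjusted p = 0.143, limma). Without fasted replicate 3 the difference was 0.22 and passed (adjusted p = 0.00722, limma), where 34.7% of all genes were called. With its most abundant transcript alone, Pde5a-201, the difference was 0.25 and passed among genes (adjusted p = 0.0477, limma). Pde5a-201 and Pde5a-204 start at separate first exons, 623 bases apart, and encode proteins of 865 and 833 amino acids that share 2473 coding bases. Their first 60 coding bases on the plus strand are shown with the start codon in capitals, since the forms differ at the start of the frame. Of the coding bases, 122 belong to Pde5a-201 alone and 26 to Pde5a-204 alone, so the later bases shown for Pde5a-204 are also in Pde5a-201.
Pde5a-201, chr3:122729246-122729305: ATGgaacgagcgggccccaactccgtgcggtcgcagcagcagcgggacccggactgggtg
Pde5a-204, chr3:122730631-122747922: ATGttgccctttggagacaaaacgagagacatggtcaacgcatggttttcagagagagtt

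The forms were about equally abundant, and Pde5a-201 made up 48.7% ± 3.64 of the gene in the control group and 52.7% ± 7.39 in the fasted group. Pde5a-201 was at 13.6 to 16.8 FPKM with a median of 15.5 in the control group and at 16.0 to 22.5 FPKM with a median of 17.7 in the fasted group. It was above all controls in 4 of 6 fasted libraries, and its difference of 0.25 ± 0.09 did not pass over all transcripts (adjusted p = 0.0700, limma). Pde5a-204 differed by 0.03 ± 0.14 (adjusted p = 0.921, limma), with fasted replicate 3 the lowest at 10.1 FPKM. The shares of the forms did not pass (adjusted p = 0.701, limma on arcsine square root shares).

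**Figure D3:**
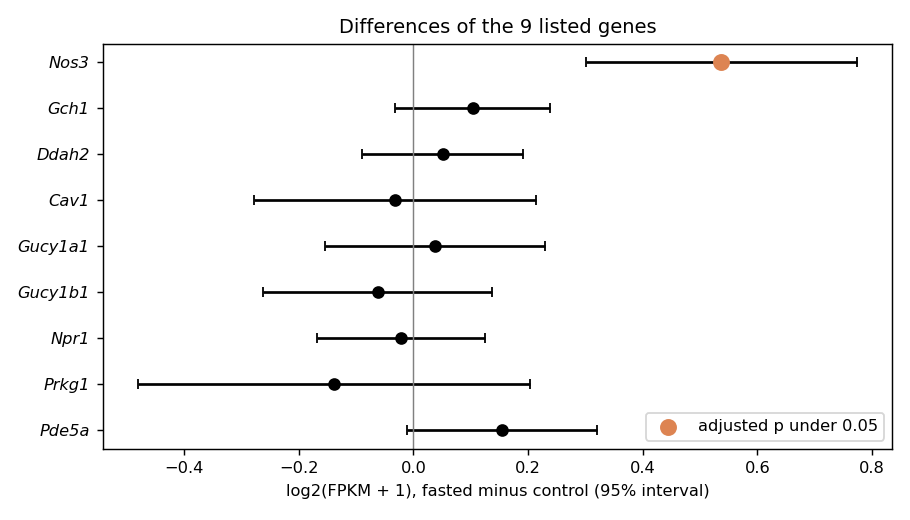
Difference between fasted and control on the log2(FPKM + 1) scale for each of the 9 genes, with the 95% interval from limma. The orange marker is Nos3, at 0.54 with an interval of 0.30 to 0.77, and the intervals of the other 8 genes cross 0.

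The ratio of Pde5a to the β subunit of the cyclase, Gucy1b1, in the same library rose. Its ratio to the α subunit, Gucy1a1, was not tested. The log2 ratio of Pde5a to Gucy1b1 was -1.74 to -1.41 with a median of -1.55 in the control group and -1.46 to -1.19 with a median of -1.35 in the fasted group. The ratio of levels went from 0.338 to 0.394. In 5 of 6 fasted libraries it was above all controls, fasted replicate 3 among them. There Pde5a, at 28.1 FPKM, and Gucy1b1, at 71.5 FPKM, were both below all controls. The high ratio of that library thus went with a low Gucy1b1 and not with a high Pde5a. The difference of 0.22 passed over the 5 ratios (exact two-sided permutation p = 0.00433, adjusted p = 0.0217, the smallest p that the 924 splits allow being 0.00217). It passed without any 1 library, with differences from 0.19 to 0.25. Neither Pde5a nor Gucy1b1 passed alone, and how often ratios of other genes pass the same test was not computed.

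**Figure D4:**
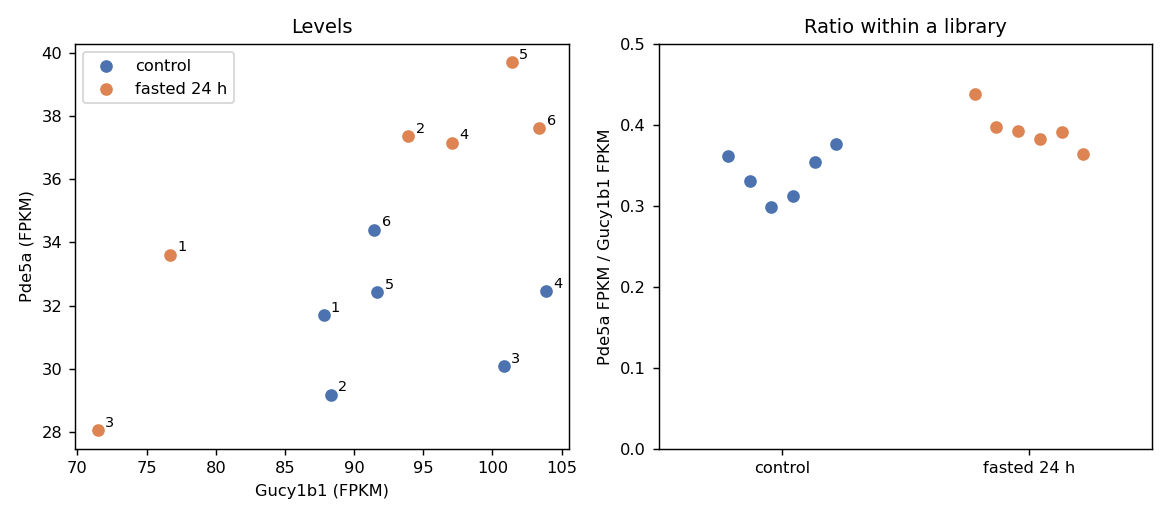
Left, level of Pde5a against level of Gucy1b1, both in FPKM, for each library with its replicate number. Right, the ratio of the levels within a library by group, points in order of replicate number. The geometric mean ratio is 0.338 in the control group and 0.394 in the fasted group, and the 4 fasted libraries within the control range of Gucy1b1 lie at 37.1 to 39.7 FPKM of Pde5a, above all controls.

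Within the groups, 3 of the 36 pairs of these genes varied together beyond the permutation threshold. The share of such pairs among all genes was not computed, so the count cannot be read as particular to this set. Deviations of log2(FPKM + 1) from the group mean were correlated over 12 libraries, with 100000 permutations within groups and adjustment over the 36 pairs. Cav1 and Gucy1b1 went together (Pearson's r = 0.90, permutation p = 0.00082, adjusted 0.0148; Spearman's rho = 0.88, permutation p = 0.00130, adjusted 0.0234), and r was 0.79 without the 2 libraries farthest from the median, fasted replicates 3 and 6. Cav1 and Npr1 went opposite ways (r = -0.89, permutation p = 0.00032, adjusted 0.0115; rho = -0.82, permutation p = 0.00195, adjusted 0.0234), with r = -0.80 without those 2 libraries. Gucy1b1 and Npr1 also went opposite ways (r = -0.79, permutation p = 0.00210, adjusted 0.0252; rho = -0.81, permutation p = 0.00132, adjusted 0.0234), with r = -0.71 without fasted replicates 1 and 3. Relations of a library's deviation with transcript length, given above, run through all genes of a library, and their part in these correlations was not tested.

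Genes most like each member in these deviations were sought among tested genes with a mean of at least 5 FPKM, as a description with no test. For Nos3 they were Tbc1d10a (r = 0.89), Ly6c1 (r = 0.88), Tmem9b (r = 0.87), Vwa1 (r = 0.87) and Tmsb10 (r = 0.84). For Pde5a the closest was Smurf1 (r = 0.96) and for Prkg1 Aff4 (r = 0.98), which came to 0.89 and 0.92 without fasted replicate 3. The closest gene was Klhl7 for Cav1 (r = 0.96), Rnf115 for Gucy1b1 (r = 0.96), Mtdh for Gucy1a1 (r = 0.92), Lims2 for Npr1 (r = 0.93), Zdhhc4 for Ddah2 (r = 0.93) and Copg1 for Gch1 (r = 0.92).

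Around these genes, the rest of the pathway was read from a list of 62 others, of which 49 had rows and 47 were tested. In all 5 rose and 7 fell, 25.5% of those tested beside 31.7% of all genes. Among 13 tested partners of the synthase, 1 rose and 4 fell. Dynll1, a dynein light chain that binds the neuronal synthase, fell from 81.2 ± 11.9 to 48.2 ± 5.97 FPKM (-0.74 ± 0.11, adjusted p = 0.000252, limma). Calm3, which encodes the calcium sensor calmodulin that switches the synthase on, fell from 112 ± 6.24 to 80.8 ± 4.31 FPKM (-0.46 ± 0.05, adjusted p = 2.67e-05, limma). Hsp90ab1, a chaperone of the kind that binds the synthase, fell from 339 to 295 FPKM (-0.20 ± 0.05, adjusted p = 0.00869, limma). In these 3 and in Zdhhc21, which palmitoylates the synthase in mice and fell by 0.25 on the log2 scale, the groups did not overlap. Zdhhc21 was singled out after its values were seen. Cavin2, a caveola coat protein, rose from 34.8 to 45.5 FPKM (0.38 ± 0.09, adjusted p = 0.00594, limma). Nos1 and Nos2, the neuronal and inducible synthases, were not analysed here.

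None of 5 tested genes of tetrahydrobiopterin synthesis and recycling was called by limma (2 of them at an unadjusted p under 0.05). Of 5 tested genes of arginine supply and methylation, Ass1, the argininosuccinate synthase that remakes arginine from citrulline, rose from 6.19 to 7.58 FPKM (0.27 ± 0.09, adjusted p = 0.0409, limma). Its groups overlapped. Its call held without control replicate 4 or fasted replicate 1 and was lost when any other single library was left out, with adjusted p from 0.0517 to 0.0772 (limma).

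Among the other receptors and subunits, Npr3, the clearance receptor for natriuretic peptides, fell from 6.90 to 5.60 FPKM (-0.26 ± 0.09, adjusted p = 0.0488, limma). Its call held without control replicate 4 or fasted replicate 1 or 2 and was lost when any other single library was left out, with adjusted p from 0.0561 to 0.09998 (limma), and it was lost under either rescaling. Npr2, the receptor for C-type natriuretic peptide, had 31.6 ± 7.99 and 36.6 ± 5.41 FPKM and did not pass (0.23 ± 0.16, adjusted p = 0.2998, limma), but with the endothelial covariate its difference was 0.55 and passed (adjusted p = 0.0246, limma). Gucy1a2, the alternative α subunit, was low, at 0.97 and 0.87 FPKM, and did not pass (adjusted p = 0.680, limma). Of 8 tested genes of cGMP breakdown and export, Pde3b, a phosphodiesterase that cGMP inhibits, rose from 3.27 to 4.20 FPKM (0.28 ± 0.09, adjusted p = 0.0245, limma). That call was lost without control replicate 1 or without fasted replicate 2, 4 or 5, with adjusted p up to 0.0555 (limma).

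Downstream of the kinase, the subunits of the large-conductance potassium channel moved in opposite directions. Kcnma1, its pore, rose from 12.03 ± 0.85 to 15.9 ± 1.85 FPKM (0.37 ± 0.08, adjusted p = 0.00324, limma). Kcnmb1, the β subunit that raises its calcium sensitivity in smooth muscle, fell from 89.8 ± 2.91 to 64.4 ± 3.26 FPKM (-0.48 ± 0.04, adjusted p = 6.91e-06, limma), with no overlap between the groups. Rhoa, the small GTPase of smooth muscle contraction that the kinase phosphorylates, fell from 199 ± 5.45 to 173 ± 5.34 FPKM (-0.20 ± 0.04, adjusted p = 0.0014, limma), also with no overlap. These were the called genes among 10 tested. Mrvi1, which encodes the kinase's partner at the calcium store, had 49.0 and 47.9 FPKM and did not pass (adjusted p = 0.918, limma). Of 3 genes that remove nitric oxide or its adducts, Cygb, the cytoglobin that consumes nitric oxide in the vessel wall, rose from 70.9 ± 4.45 to 84.6 ± 10.6 FPKM (0.24 ± 0.08, adjusted p = 0.0263, limma). That call was lost without control replicate 5 or 6 (adjusted p up to 0.0567, limma). With the adipocyte covariate the calls of Hsp90ab1 (-0.17), Zdhhc21 (-0.23), Ass1 (0.32), Npr3 (-0.25), Pde3b (0.27) and Cygb (0.15) were lost, where the log2 differences of Zdhhc21, Ass1, Npr3 and Pde3b stayed close to or above those without it. With the endothelial covariate those of Cavin2 (0.22), Ass1 (0.13), Npr3 (-0.20), Pde3b (0.12), Kcnma1 (0.29) and Cygb (0.22) were lost. With the most abundant transcript of each gene alone, those of Ass1 (0.27, adjusted p = 0.0534, limma), Npr3 (-0.24, adjusted p = 0.0825, limma) and Kcnma1 (0.47, adjusted p = 0.0611, limma) were lost, with differences of like size or larger.

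**Figure D5:**
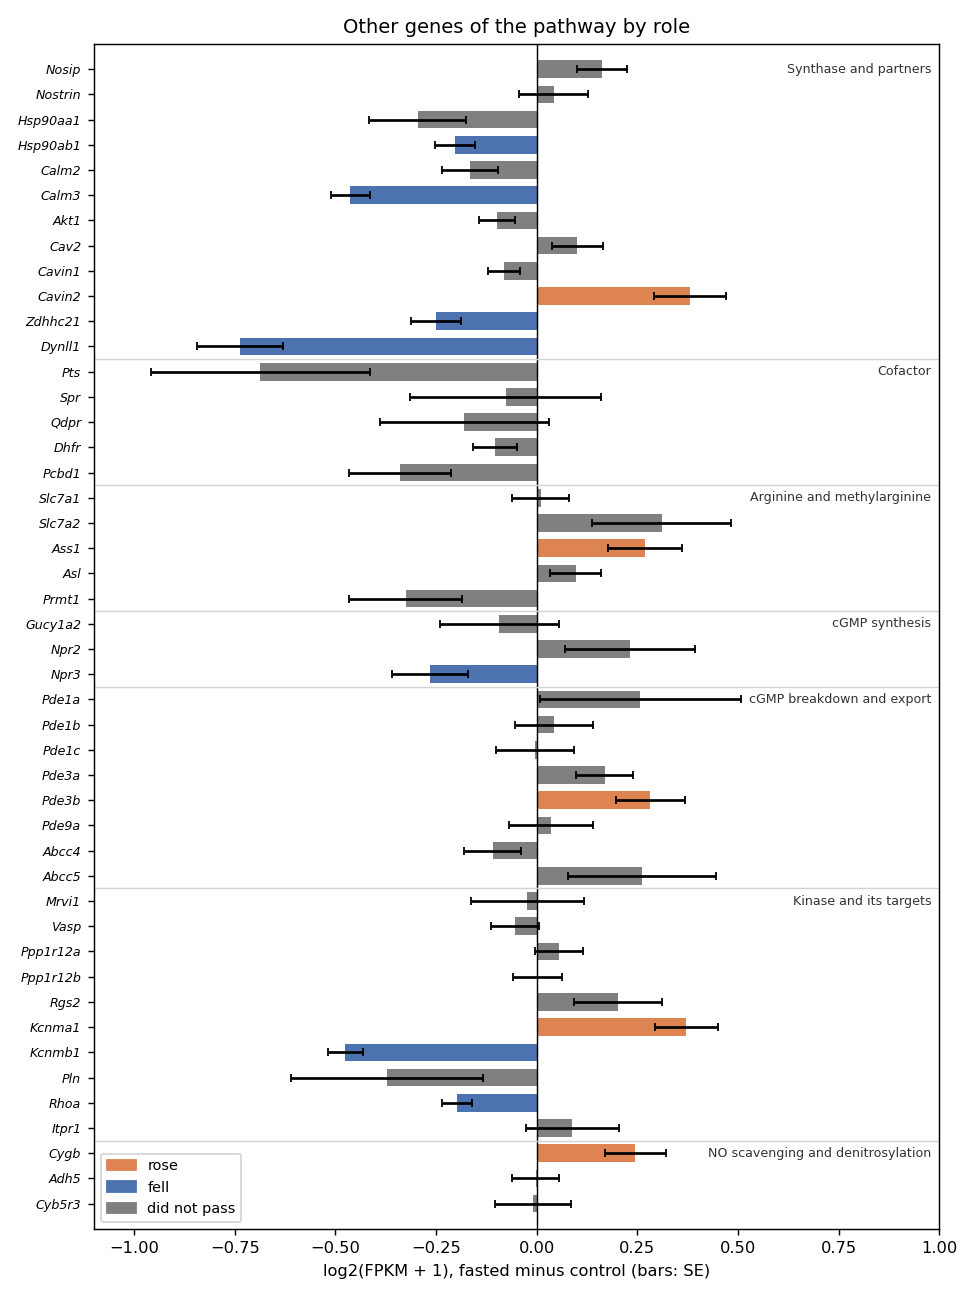
Difference between fasted and control on the log2(FPKM + 1) scale for the tested other genes of the pathway, by role, with SE bars from limma. Orange bars are the 5 genes that rose, blue bars the 7 that fell and grey bars those that did not pass, of which 1 is not drawn. The longest called bars are Dynll1 at -0.74, Kcnmb1 at -0.48 and Calm3 at -0.46.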

How the data were processed

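Poly(A)-selected RNA of 12 aorta samples was sequenced at both ends from strand-specific libraries, per the labels' protocols. FastQC, cutadapt, HISAT2 and StringTie on GRCm38 are named, per the submitters' processing notes; for settings, use of strand and annotation the sources give nothing. A single table of FPKM per transcript was deposited by the authors. The lowest mean in the higher group was 0.50 FPKM, so lower transcripts are not analysed here. The table holds no counts, so depth is unknown and no counting interval was computed.

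Transcript identifiers were matched to GENCODE M21, 21493 with their version, 1162 with another and 44 not at all, and summed per gene. Sequences come from that release. Genes or transcripts reaching 0.5 FPKM in 6 or more libraries entered limma 3.58.1 in R 4.3.3 (lmFit, eBayes with trend) on log2(FPKM + 1). Shares were tested where every library had 1 FPKM of the gene or more. The pseudocount, filter, scaling, replicate block, single libraries and marker covariates were varied. Ratios were tested by exact permutation with Python 3.11.15 and scipy 1.17.1. The ratio of Ddah1 to Ddah2 was planned and not run. The design had allowed for counts, and the limma test it named for FPKM was used. Scripts were tested on simulated data. No pair of libraries was a copy, with at most 7.46% of genes within 1% of each other. Among the other pathway genes 1 that was tested enters the counts and is not reported here. Members, lists and the rule for named genes were chosen with earlier results of these data known. By that rule all members and their transcripts, Nos1, Nos2, Npr2, Npr3, Gucy1a2 and Mrvi1 were named whatever the outcome, beside up to 4 called genes per role with the smallest p and the 5 genes most like each member, of which the text gives all for Nos3 and the first for the others.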

Additional observations from a re-analysis of the deposited data

Results flagged for a closer look

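Of 64 groups of 6 libraries checked over the genes and transcripts of the set, 3 held a library far from the others by Dixon's criterion, the gap to the nearest library over the whole range, which chance gives in about 1 in 20 groups. The Prkg1 gene level in fasted replicate 3 was 7.52 FPKM, where the other 5 fasted libraries were at 14.4 to 17.9 FPKM. Its main transcript Prkg1-201 was at 6.28 FPKM in the same library, against 11.6 to 14.5 FPKM in the others; this transcript makes up most of the gene's value. Cav1-206, a minor transcript of Cav1, was at 5.34 FPKM in control replicate 4, against 3.76 to 4.25 FPKM in the other 5 controls. Fasted replicate 3 also had the highest summed level of adipocyte markers, 466 FPKM, and its part in the level of Prkg1 was not tested.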

How the results depend on the processing

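Adding the adipocyte marker level as a covariate gave 2452 called genes in place of 3821 and 0 called members in place of 1, and leaving out single libraries gave 1 to 2 called members, the second being Pde5a without fasted replicate 3. With the most abundant transcript alone the 1 called member was Pde5a (0.25) and not Nos3 (0.26). The count of called member transcripts, 0, became 1 with a pseudocount of 0.1 or 0.01 and with the replicate block (Nos3-202), with median-of-ratios factors (Pde5a-201), and was 0 to 1 over the fits that left out 1 library (Nos3-202 without control replicate 3, Pde5a-201 without fasted replicate 1, Ddah2-204 without fasted replicate 6). Same-numbered libraries did not deviate together (correlations -0.01 to 0.08, and 2 of 6 controls correlated best with their own number). With the replicate block the ratios of Nos3 to Cav1 (0.62, adjusted p = 0.104, exact sign-flip permutation) and of Pde5a to Gucy1b1 (0.22, adjusted p = 0.104, exact sign-flip permutation) did not pass, but with 6 pairs the smallest unadjusted p is 0.0312, so that this test could hardly pass over 5 ratios. Nos3 kept its call with the block. With 1 added to each value, the ratio of Gch1 to Nos3 (-0.43) and that of Nos3 to endothelial markers (0.33) passed, both with adjusted p = 0.0162 (exact permutation). With the most abundant transcripts alone, Nos3 to Cav1 was 0.29 and did not pass, and Nos3 to endothelial markers was -0.087. Over the fits that left out 1 library, the ratio of Nos3 to Cav1 was 0.46 to 0.74, of Gch1 to Nos3 -0.45 to -0.26 and of Nos3 to endothelial markers 0.21 to 0.37. The Gch1 ratio passed without control replicate 4 or fasted replicate 6, and the endothelial ratio without fasted replicate 5 or 6. Differences near 0 changed sign in some fits, none of them called. With the adipocyte covariate these were Cav1 0.24, Ddah2 -0.010, Gucy1a2 0.013, Gucy1b1 0.12 and Prkg1 0.11. With median-of-ratios factors Mrvi1 was 0.0054, Npr1 0.0079 and Npr1-201 0.0050; with an equal sum of listed values Mrvi1 was 0.0030 and Npr1, with Npr1-201, 0.0055. With the most abundant transcript Cav1 was 8.20e-05 and Mrvi1 0.29, with the endothelial covariate Mrvi1 was 0.0034 and Npr1 0.10, and Cav1-202 was -0.00088 and -0.00098 with pseudocounts of 0.1 and 0.01. Leaving out 1 library, gene differences ranged over -0.081 to 0.062 (Cav1), -0.038 to 0.076 (Gucy1a1), -0.17 to 0.0097 (Gucy1a2), -0.10 to 0.0031 (Gucy1b1), -0.11 to 0.071 (Mrvi1), -0.071 to 0.014 (Npr1, Npr1-201) and -0.21 to 0.017 (Prkg1). Transcript differences ranged over -0.058 to 0.11 (Cav1-202), -0.22 to 0.0018 (Cav1-204), -0.064 to 0.093 (Cav1-205), -0.12 to 0.0010 (Cav1-209), -0.0014 to 0.086 (Ddah2-201), -0.13 to 0.0020 (Ddah2-202), -0.057 to 0.070 (Gucy1a1-201), -0.049 to 0.14 (Gucy1b1-204), -0.028 to 0.16 (Pde5a-204) and -0.17 to 0.047 (Prkg1-201). Share differences on the arcsine scale ranged over -0.021 to 0.0020 (Cav1-204), -0.00011 to 0.023 (Cav1-205), -0.0078 to 0.0042 (Cav1-209) and -0.012 to 0.0090 (Ddah2-201). The cause of these changes was not tested.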

Other observations

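Fasted replicate 3 departed from the other fasted libraries in both directions over the set. On the log2(FPKM + 1) scale, against the mean of the other 5 fasted libraries, Prkg1 was at -0.93, Cav1 at -0.56, Gucy1b1 at -0.39, Pde5a at -0.39 and Gucy1a1 at -0.23. Nos3 was at 0.33, Npr1 at 0.30 and Ddah2 at 0.25, and Gch1 at -0.05. Fasted replicate 6 had the opposite pattern in several of the same genes, with Gucy1a1 at 0.46, Cav1 at 0.29, Gucy1b1 at 0.24 and Nos3 at -0.42, yet it shared with fasted replicate 3 the high share of Nos3-202.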
